A study of Mus musculus with 12 samples.

Results

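The comparison is PA against BSA in primary hepatocytes of G3bp1-Flox mice. Its members are the 6 libraries labelled Flox with BSA (3 libraries) or with PA (3 libraries), out of 12 libraries in the series, chosen by their labels. Of the 54532 genes in the deposited table, the 9802 whose average in these 6 libraries reached 1 FPKM were tested. All mice were 6 weeks old. The Flox mice carry the floxed allele and served as controls of G3bp1-HKO mice, by their name a hepatocyte knockout, whose Cre driver the sources used here do not give. Cells of both genotypes received BSA or PA and were frozen for RNA extraction, and the series concerns NASH, the inflammatory form of fatty liver disease. G3BP1 binds RNA and is a core component of stress granules. In work of this kind PA is usually palmitic acid carried on bovine serum albumin, with albumin alone as the control. The sources used here write only the abbreviations, and dose, duration, sex and the number of mice per library are not given in them. The p-values therefore measure the spread between these samples, which may be technical.

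Palmitate is a saturated fatty acid that hepatocytes take up, activate with coenzyme A and then burn in mitochondria, store as triglyceride in lipid droplets or build into membranes. Stored lipid is coated by perilipins, and fatty acids act as ligands of PPARA, the nuclear receptor that switches on genes of fatty acid oxidation. In excess, saturated fatty acids are known to disturb the membrane of the endoplasmic reticulum (ER), to raise reactive oxygen species and to turn on inflammatory genes, which is why the treatment is used as a model of lipid overload in liver cells.

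The library names are shortened below to BSA 1 to 3 and PA 1 to 3. The reads in genes, computed from the FPKM values and the gene lengths in the table, ranged from 16.2 to 17.6 M in the Flox libraries, where M stands for 10 to the power 6. G3bp1 (chr11:55469685-55504838, plus strand, with coordinates here and below from the table, build GRCm38), the gene targeted in the other genotype, measured 40.02, 37.7 and 45.7 FPKM with BSA and 39.1, 38.97 and 41.6 with PA, and 7.03 to 8.50 FPKM in the 6 HKO libraries. The Flox groups overlapped at G3bp1 (log2 change -0.04, SE 0.09, adjusted p = 0.764), and its paralog G3bp2 did not pass either (log2 change -0.17, adjusted p = 0.284). The libraries carried the RNA of hepatocytes: the 14 hepatocyte markers summed to 10737 to 12085 FPKM, led by Alb, with none at 0. They also held RNA of liver macrophages, with 18 Kupffer cell and macrophage markers that summed to 1896 to 2361 FPKM, whereas the marker lists of endothelium, stellate cells, cholangiocytes, lymphocytes and neutrophils summed to between 5.62 and 39.5 FPKM. A principal component analysis of the 6 libraries put 54.3% of the variance on its first axis, which placed the BSA libraries at -15.6, -16.4 and -10.0 and the PA libraries at 6.04, 17.4 and 18.6. BSA 3 and PA 1 lay nearest to the other group on it.

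Many genes moved by a small amount. With PA, 873 genes rose and 676 fell at an adjusted p under 0.05 (limma on log2(FPKM + 1), 6 libraries), 1549 in all or 15.8% of the genes tested (8.91% higher and 6.9% lower). Their median log2 change was 0.42 for those that rose and -0.47 for those that fell, against 0.01 over all genes tested. Only 26 rose and 22 fell by at least 2-fold on this scale, and 164 and 184 by at least 1.5-fold. In 3827 genes, 39% of those tested, the 3 PA libraries lay wholly above or wholly below the 3 BSA libraries, and 1541 of the 1549 genes that passed were among them. A lack of overlap stated below for a gene that passed therefore adds little to its call. For the 10 genes of largest change in each direction it was part of the rule that picked them. The number that passed rested on single libraries: it was 547 without BSA 1, 640 without BSA 2, 392 without PA 2 and 689 without PA 3, against 1824 without BSA 3 and 1942 without PA 1. The fit of all 12 libraries, in which the HKO libraries share the estimate of the spread, called 245 genes, and the fit without a filter 446. Of the 259 members of the lists and named genes that passed, 187 lost the call with all 12 libraries in the fit and 154 without a filter. With each single library left out 104 of the 259 passed throughout, and of these 104 the fit of all 12 libraries called 64 and that without a filter 94. Counts by list with each library left out in turn, and with all 12 libraries in the fit, are given below with the libraries left out in the order BSA 1, BSA 2, BSA 3, PA 1, PA 2, PA 3, and a gene may stand in more than 1 list. BSA 1, BSA 2, PA 2 and PA 3, farthest from the other group on the first axis, are called the 4 outer libraries. All counts by list are to be read beside the shares of all genes, 8.91% higher and 6.9% lower.

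**Figure D1:**
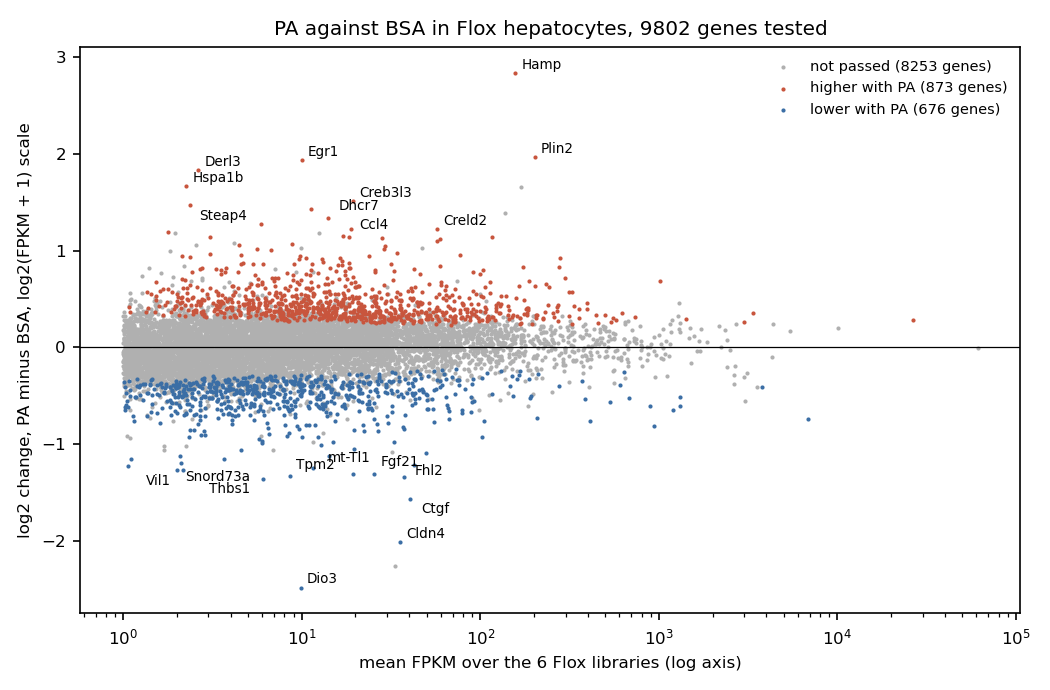
Log2 change (PA minus BSA, on the log2(FPKM + 1) scale) of the 9802 genes tested against their mean FPKM over the 6 Flox libraries (log axis), 1 point per gene, coloured by call, with the 10 named genes of largest change in each direction labelled (predicted genes and pseudogenes carry no label). Hamp, Plin2 and Egr1 lie highest and Dio3 and Cldn4 lowest among the genes that passed.

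**Figure D2:**
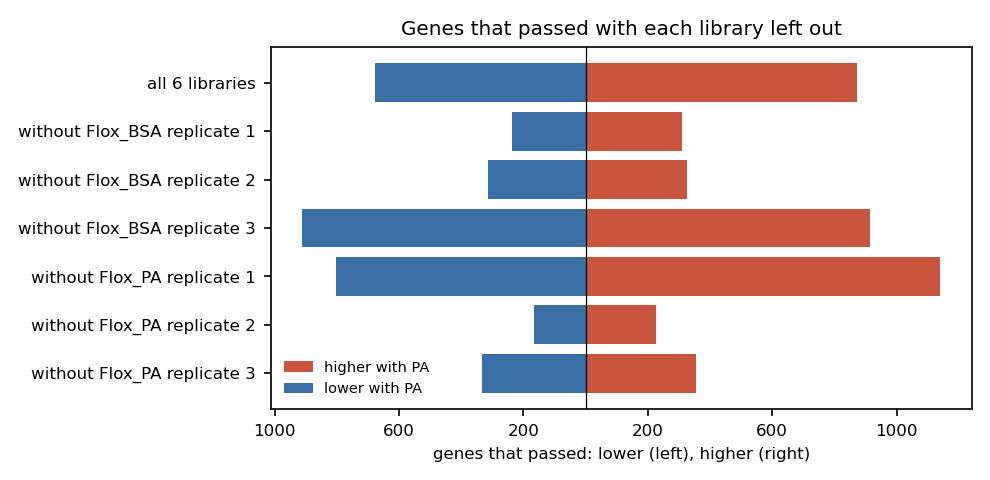
Number of genes that passed (bars to the right, higher with PA; bars to the left, lower with PA) with all 6 libraries and with each library left out. The total is lowest, 392, without PA 2 and highest, 1942, without PA 1.

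Hamp, which encodes the iron hormone hepcidin, had the largest rise. It measured 27.9, 46.05 and 39.9 FPKM with BSA and 218, 298 and 311 with PA (chr7:30942368-30944032, minus strand; log2 change 2.84, SE 0.19, adjusted p = 0.000126). The lowest PA library, PA 1, was far above the highest BSA library, BSA 2. The neighbouring and closely similar gene Hamp2 measured 7.08, 5.89 and 7.09 FPKM with BSA and 7.99, 8.42 and 4.58 with PA and did not pass, although reads of such copies may be split between them. Dio3, the deiodinase that inactivates thyroid hormone, had the largest fall, with 22.1, 15.1 and 15.4 FPKM with BSA and 2.73, 2.01 and 2.07 with PA (chr12:110279068-110281097, plus strand; log2 change -2.49, SE 0.15, adjusted p = 0.000126). The PA libraries were close to each other and all far below the BSA libraries, of which BSA 1 was the highest.

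**Figure D3:**
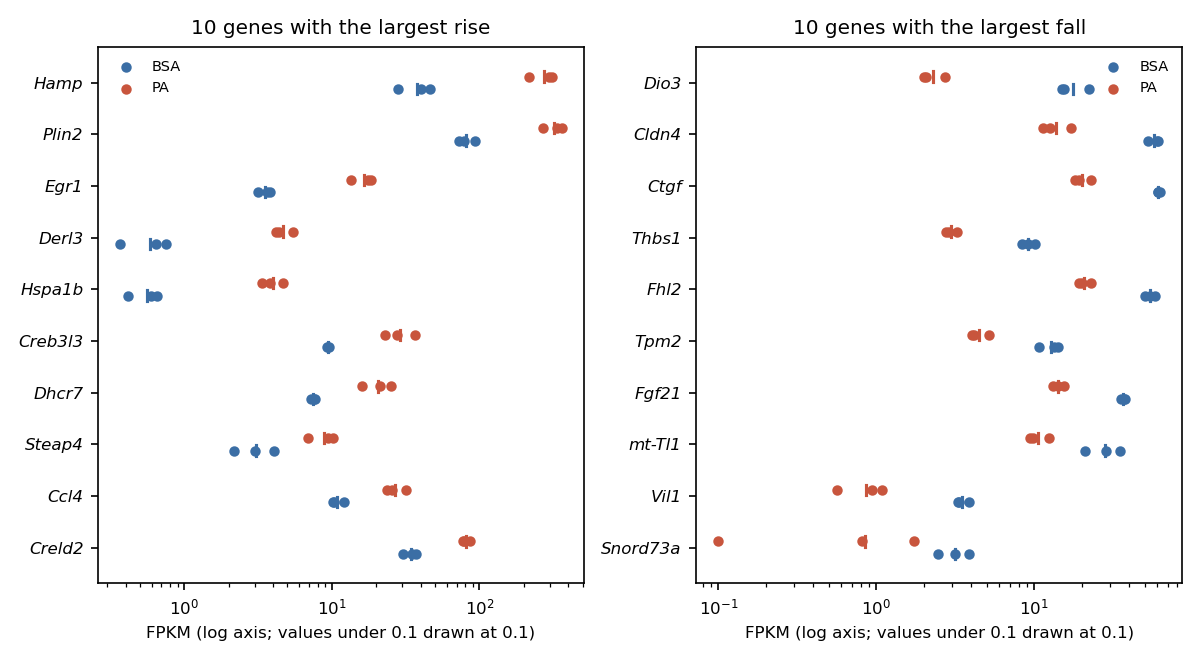
FPKM (log axis) in each Flox library of the 10 genes with the largest rise and the 10 with the largest fall, with BSA in blue and PA in red; points are libraries and short bars are group means. The 20 genes were picked among those whose groups did not overlap, so the separation of the points is part of the rule. Snord73a, drawn at 0.1 for PA 3, was listed at 0 there.

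Genes of the lipid droplet and of triglyceride turnover rose in part. Of 20 tested members 7 rose and 1 fell, against 8.91% and 6.9% of all genes, and the list's median log2 change was 0.24. Plin2, the perilipin that coats lipid droplets in hepatocytes (chr4:86648386-86670060, minus strand), measured 72.8, 78.2 and 93.4 FPKM with BSA and 269, 361 and 337 with PA (log2 change 1.97, SE 0.13, adjusted p = 0.000126). The groups were far apart, with PA 2 the highest. Plin3, another droplet coat protein, went from 46.8, 43.1 and 47.9 FPKM to 72.3, 77.4 and 72.2 FPKM (log2 change 0.68). Hilpda, an inhibitor of the triglyceride lipase ATGL, measured 15.3, 17.5 and 14.9 FPKM with BSA and 27.96, 38.9 and 28.9 with PA (log2 change 0.95, adjusted p = 0.00324). G0s2, also an ATGL inhibitor, went the other way, from 67.6 ± 6.89 to 31.2 ± 3.33 FPKM (SD, n = 3; log2 change -1.09, SE 0.10, adjusted p = 0.000655). ATGL itself, encoded by Pnpla2, rose (log2 change 0.52), as did Dgat2 (0.64), which makes triglyceride, the phosphatidate phosphatase gene Lpin1 (0.42) and Fitm2 (0.37). Plin5, which ties droplets to mitochondria, had a log2 change of 0.46 and did not pass (adjusted p = 0.061). Of the lipid droplet list, 5, 4, 8, 7, 4 and 4 rose and 1 fell each time with 1 library left out in turn, and 3 rose and 1 fell with all 12 libraries in the fit. Plin2, Plin3, Hilpda, G0s2 and Dgat2 passed whichever library was left out. Of these, Dgat2 did not pass without a filter or with all 12 libraries in the fit (highest adjusted p = 0.141). Pnpla2 lost the call without BSA 2, PA 2 or PA 3, and Lpin1 and Fitm2 without any 1 of the 4 outer libraries (highest adjusted p of each = 0.081 to 0.106).

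Some genes that use fatty acids rose. In the list of PPARA targets and of fatty acid oxidation 9 of 27 tested members rose and 1 fell, with a median log2 change of 0.15. Creb3l3, a liver transcription factor of the fasting and lipid response, measured 9.37, 9.50 and 9.28 FPKM with BSA and 22.9, 36.8 and 27.7 with PA (log2 change 1.51, SE 0.14, adjusted p = 0.000736). The BSA libraries were almost equal and all 3 PA libraries lay well above them, PA 2 the highest. Cpt2, the carnitine palmitoyltransferase of the inner mitochondrial membrane, went from 6.10, 6.12 and 6.87 to 10.1, 14.3 and 14.5 FPKM (log2 change 0.91), and Angptl4, a secreted inhibitor of lipoprotein lipase, from 22.4, 21.9 and 21.5 to 34.4, 45.3 and 43.2 FPKM (0.86). The acyl-CoA dehydrogenase genes Acadl, Acads and Acadvl rose by 0.51, 0.37 and 0.33 on the log2 scale. Cpt1a, the entry step of mitochondrial oxidation, did not pass (log2 change 0.36, adjusted p = 0.0672), nor did the PPARA target Cyp4a14 (-0.06). Of the PPARA list, 6, 5, 10, 12, 3 and 5 rose and 1 fell each time with 1 library left out in turn, and 4 rose and 1 fell with all 12 libraries in the fit. Few uptake genes changed: of 16 tested members of the uptake, binding and activation list 1 rose and 1 fell, near the share of all genes. The riser was Dbi, the acyl-CoA binding protein (log2 change 0.43, adjusted p = 0.00723). Acsl5, an acyl-CoA synthetase, fell (log2 change -0.27), and the transporter gene Cd36 had a log2 change of -0.04 (adjusted p = 0.885). Of the uptake list, 1, 1, 2, 3, 1 and 2 rose and 0, 0, 2, 2, 0 and 0 fell with 1 library left out in turn, and none passed with all 12 libraries in the fit. Creb3l3, Cpt2, Angptl4 and Dbi passed whichever library was left out. Of these, Dbi did not pass with all 12 libraries in the fit (highest adjusted p = 0.259). Acadl and Acads lost the call without PA 2, and Acadvl and Acsl5 without any 1 of the 4 outer libraries (highest adjusted p of each = 0.0551 to 0.14).

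Of 20 tested fatty acid synthesis and desaturation genes 9 rose and 1 fell (median log2 change 0.26). Thrsp, a lipogenic gene that responds to thyroid hormone and carbohydrate, measured 7.92, 8.87 and 9.005 FPKM with BSA and 15.3, 20.04 and 16.3 with PA (log2 change 0.92, SE 0.11, adjusted p = 0.00191). The groups did not overlap. Pklr, liver pyruvate kinase, went from 270.5, 248 and 264 to 340.1, 417 and 410.3 FPKM (log2 change 0.57). Srebf1, the transcription factor that drives lipogenesis, rose by 0.42 and the desaturase genes Fads1 and Fads2 by 0.42 and 0.37. Acaca, cytosolic acetyl-CoA carboxylase, fell (log2 change -0.56), while its mitochondrial counterpart Acacb rose (0.51). Fasn (log2 change -0.18, adjusted p = 0.22) and Scd1 (-0.02, adjusted p = 0.831) did not pass. Of the fatty acid synthesis list, 4, 5, 9, 11, 3 and 5 rose and 1, 1, 1, 1, 0 and 1 fell with 1 library left out in turn, and 1 rose and none fell with all 12 libraries in the fit. Thrsp and Pklr passed whichever library was left out. Of these, Pklr did not pass with all 12 libraries in the fit (highest adjusted p = 0.219). Srebf1 lost the call without BSA 1, BSA 2 or PA 2, Fads1 without PA 2, Fads2 without any 1 of the 4 outer libraries, Acaca without PA 2 or PA 3, and Acacb without BSA 1, PA 2 or PA 3 (highest adjusted p of each = 0.0574 to 0.0866).

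Cholesterol synthesis and uptake was the list with the highest share of risers, 16 of 25 tested members and none lower, with a median log2 change of 0.43. Dhcr7, the last step of one branch of cholesterol synthesis, measured 7.25, 7.53 and 7.66 FPKM with BSA and 15.9, 25.1 and 21.03 with PA (chr7:143823145-143848410, plus strand; log2 change 1.33, SE 0.14, adjusted p = 0.00118). The BSA libraries were almost equal, and PA 1 was the lowest of the PA libraries. Mvd, the mevalonate diphosphate decarboxylase, went from 10.9, 11.8 and 10.5 to 21.7, 23.5 and 20.3 FPKM (log2 change 0.92, adjusted p = 0.000586), and Acat2, which joins acetyl-CoA units, from 11.2, 11.97 and 14.8 to 20.4, 26.4 and 25.2 FPKM (0.87, adjusted p = 0.00431). Other steps that rose were Lss (log2 change 0.87), Hsd17b7 (0.78), Pmvk (0.67), Nsdhl (0.63) and Fdft1 (0.59). So did the transcription factor gene Srebf2 (0.43) and the sterol sensor Insig1 (0.31). Hmgcs1, an early step of the pathway, had a log2 change of 0.16 (adjusted p = 0.324) and did not pass, nor did Sqle, Idi1 and Msmo1 (0.28, -0.08 and -0.11). Of the cholesterol list, 11, 13, 16, 15, 10 and 13 rose and none fell each time with 1 library left out in turn, and 6 rose and none fell with all 12 libraries in the fit. In apolipoproteins and export of very-low-density lipoprotein 6 of 16 tested members rose and none fell (median 0.25). Tm6sf2, a gene of lipoprotein export, had the largest change (log2 change 0.64, adjusted p = 0.0188). Of the export list, 4, 1, 5, 8, 0 and 2 rose and 0, 0, 1, 0, 0 and 0 fell with 1 library left out in turn, and none passed with all 12 libraries in the fit. Dhcr7, Mvd, Acat2, Lss, Hsd17b7, Pmvk and Nsdhl passed whichever library was left out. Of these, Pmvk did not pass with all 12 libraries in the fit, and Nsdhl without a filter (highest adjusted p of each = 0.0551 to 0.0616). Fdft1 lost the call without BSA 1, PA 2 or PA 3, Srebf2 without BSA 1 or PA 2, Insig1 without any library but BSA 3, and Tm6sf2 without BSA 2, PA 2 or PA 3 (highest adjusted p of each = 0.0549 to 0.125). Apob, the main structural protein of these particles, had a log2 change of -0.47 that did not pass (adjusted p = 0.288). None of the promoters of 17 cholesterol genes held the 10-letter sterol element searched for on either strand, which 0.0999% of all genes with a promoter held (0.0968% of those tested). None of 20 PPARA list promoters held the direct repeat of AGGTCA spaced by 1 base (0.0481% of all genes with a promoter, 0.0415% of those tested). Only these letters in promoters of 300 bases were searched. Variant or more distant sites were not looked for, so these results cannot show that the genes lack such sites.

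**Figure D4:**
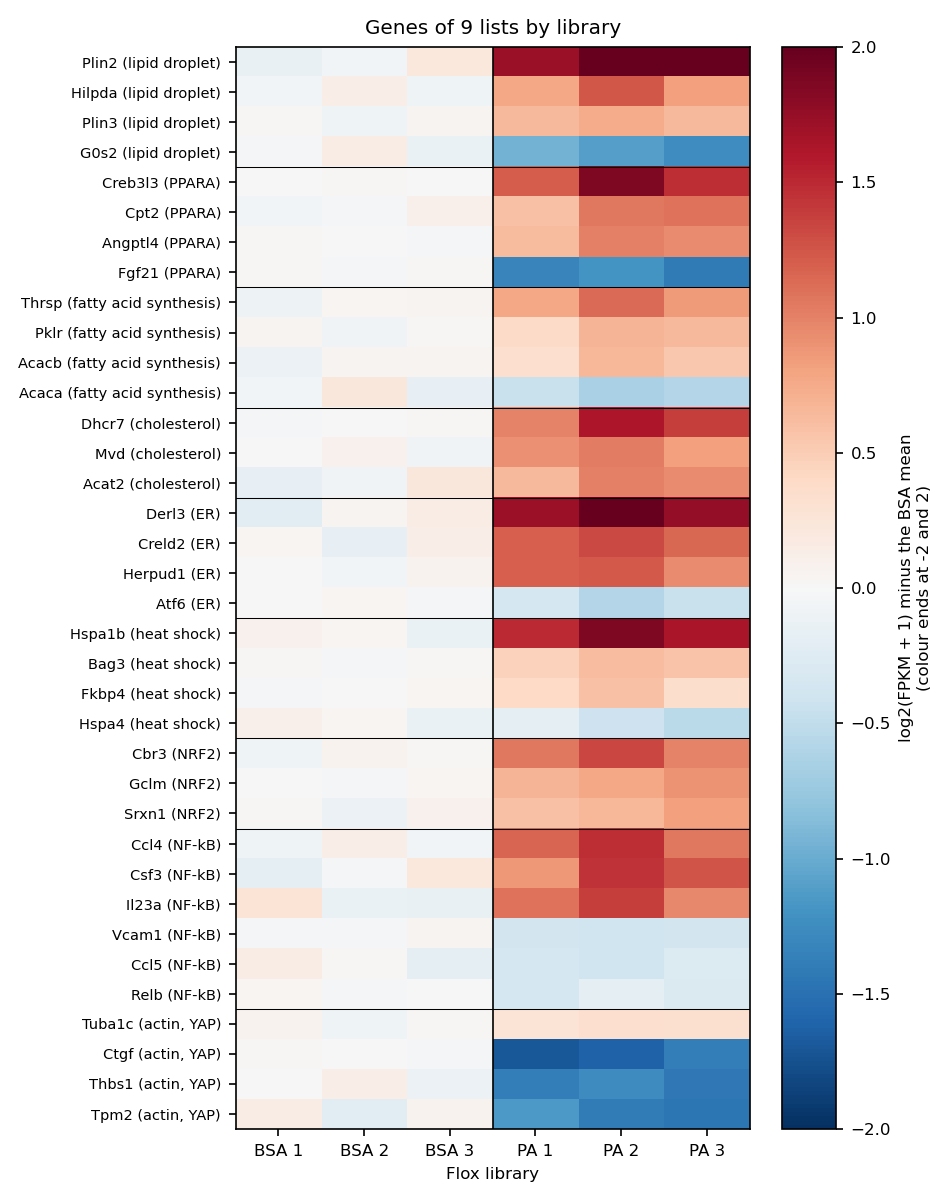
Log2(FPKM + 1) of each Flox library minus the mean of the 3 BSA libraries (colour scale ending at -2 and 2), for genes of 9 lists named by the rule, 1 row per gene with its list in brackets. The BSA columns stay near 0, PA 1 is paler than PA 2 for most risers, and G0s2, Fgf21, Ctgf, Thbs1 and Tpm2 are the deepest blue rows.

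Of the ER chaperone and ER-associated degradation genes 9 of 28 tested members rose and 1 fell, with a median log2 change of 0.18. The risers were led by genes that clear or fold proteins in the ER. Derl3, a channel component of ER-associated degradation, had 0.367, 0.646 and 0.756 FPKM with BSA and 4.18, 5.46 and 4.36 with PA (chr10:75893413-75895941, plus strand; log2 change 1.83, SE 0.13, adjusted p = 0.000161). All BSA libraries were under 1 FPKM and all PA libraries far above them. Creld2 measured 34.8, 30.3 and 37.2 FPKM with BSA and 78.8, 86.7 and 76.97 with PA (log2 change 1.22, SE 0.09, adjusted p = 0.000215) and Herpud1, a degradation factor of the ER membrane, 17.1, 16.6 and 18.1 FPKM with BSA and 40.8, 41.9 and 34.3 with PA (log2 change 1.13, SE 0.09, adjusted p = 0.000335). The groups did not overlap in either gene. Sdf2l1 (log2 change 1.02), the disulfide isomerase gene Pdia4 (0.96) and Hyou1 (0.51) rose as well. In contrast Hspa5, the main ER chaperone BiP, measured 148, 156 and 151 FPKM with BSA and 139, 122 and 104 with PA and did not pass (log2 change -0.33, adjusted p = 0.0605), nor did Xbp1 (-0.24), Dnajb9 (-0.26) or Hsp90b1 (0.19). The sensor gene Atf6 fell (log2 change -0.46). Of the ER list, 7, 7, 10, 9, 6 and 7 rose and 0, 0, 2, 4, 0 and 1 fell with 1 library left out in turn, and 5 rose and none fell with all 12 libraries in the fit. Derl3, Creld2, Herpud1, Sdf2l1, Pdia4 and Hyou1 passed whichever library was left out. Of these, Hyou1 did not pass with all 12 libraries in the fit (highest adjusted p = 0.267). Atf6 lost the call without BSA 1, BSA 2 or PA 2 (highest adjusted p = 0.0689). The ER stress element (CCAAT and CCACG with 9 bases between them, on either strand) was in 9 of 23 list promoters with a sequence and in 4 of the 8 of members that rose. Of all genes with a promoter of 300 bases 0.137% held it, and 0.18% of those tested. Hspa5, Hsp90b1 and Canx were among its other holders. The promoter of Derl3 is shown because it holds the element in the list's largest riser, in capitals at 156 bases before the start site (chr10:75893148-75893447, plus strand; this and the other promoters printed are from RefSeq, build GRCm38.p6):
Derl3: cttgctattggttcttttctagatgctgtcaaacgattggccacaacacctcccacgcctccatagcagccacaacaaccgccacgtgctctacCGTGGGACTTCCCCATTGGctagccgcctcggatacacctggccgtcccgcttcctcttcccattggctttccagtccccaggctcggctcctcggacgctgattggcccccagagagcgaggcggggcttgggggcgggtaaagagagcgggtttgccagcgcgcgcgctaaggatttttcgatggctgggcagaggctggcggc

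Of 30 tested ATF4 and CHOP targets, the amino acid arm of the stress response, 2 rose and 8 fell, with a median log2 change of -0.15. These were 6.67% and 26.7%, against 8.91% and 6.9% of all genes. Fgf21, a hormone that the liver secretes in fasting and stress and a target of both ATF4 and PPARA, measured 37.1, 35.6 and 37.3 FPKM with BSA and 14.1, 15.4 and 13.1 with PA (log2 change -1.31, SE 0.08, adjusted p = 0.000126). Libraries of each group were close to each other and the groups far apart. Nupr1, a stress-induced chromatin protein, fell from 33.9 ± 3.79 to 19.1 ± 0.792 FPKM (log2 change -0.79, SE 0.09, adjusted p = 0.00195). Aldh1l2, a mitochondrial folate enzyme, fell by 0.55 on the log2 scale (adjusted p = 0.00987), and Trib3 had a log2 change of -0.25. Atf3, a transcription factor of the stress and early responses, rose from 10.7, 10.3 and 12.3 to 23.3, 29.1 and 24.6 FPKM (log2 change 1.14, SE 0.10, adjusted p = 0.000586), and Cebpb rose (log2 change 0.43). Atf4 itself (0.03), Ddit3, which encodes CHOP (0.20), Asns (-0.21) and Chac1 (0.20) did not pass. Of the ATF4 and CHOP list, 1, 1, 2, 2, 2 and 1 rose and 4, 5, 5, 7, 2 and 5 fell with 1 library left out in turn, and 1 rose and 3 fell with all 12 libraries in the fit. Fgf21, Nupr1 and Atf3 passed whichever library was left out. Aldh1l2 lost the call without PA 2, Trib3 without any 1 library, and Cebpb without BSA 1, BSA 2 or PA 3 (highest adjusted p of each = 0.0532 to 0.155). The amino acid response element, TGATGNAAN, was in 10 of 25 list promoters, in 4 of the 5 of members that fell and in 1 of the 2 of those that rose. Of all genes with a promoter 4.5% held it, and 2.88% of those tested. The promoter of Fgf21 is shown as that of the largest fall in the list, with the element in capitals at 140 bases before the start (chr7:45615441-45615740, minus strand):
Fgf21: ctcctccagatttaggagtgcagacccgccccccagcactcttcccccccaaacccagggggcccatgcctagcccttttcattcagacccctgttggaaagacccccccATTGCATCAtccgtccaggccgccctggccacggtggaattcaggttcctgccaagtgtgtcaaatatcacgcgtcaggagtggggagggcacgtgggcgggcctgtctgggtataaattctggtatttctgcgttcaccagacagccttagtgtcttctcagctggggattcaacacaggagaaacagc

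Hspa1b, the inducible HSP70, had the largest change among cytosolic heat shock genes and measured 0.652, 0.593 and 0.418 FPKM with BSA and 3.38, 4.68 and 3.83 with PA (chr17:34956436-34959238, minus strand; log2 change 1.67, SE 0.12, adjusted p = 0.00019). All BSA libraries were under 1 FPKM and all PA libraries above it. Hspa1a is a near-identical copy, so the division of reads between them is uncertain; it had 0.123, 0.271 and 0.282 FPKM with BSA and 1.64, 2.01 and 1.46 with PA, and was under the limit for testing. Of 21 tested list members 5 rose and 1 fell (median log2 change 0.09), with the co-chaperone genes Bag3 (log2 change 0.55) and Fkbp4 (0.45) next. Hsp90aa1 (-0.01), Hspa8 (0.16) and Hsph1 (0.29) did not pass, and Hspa4 fell (-0.38). Of the heat shock list, 3, 3, 5, 5, 3 and 3 rose and 0, 0, 1, 3, 0 and 0 fell with 1 library left out in turn, and 2 rose and none fell with all 12 libraries in the fit. Hspa1b, Bag3 and Fkbp4 passed whichever library was left out. Of these, Fkbp4 did not pass with all 12 libraries in the fit (highest adjusted p = 0.225). Hspa4 lost the call without any 1 of the 4 outer libraries (highest adjusted p = 0.148). The heat shock element (GAA, TTC and GAA, 2 bases apart each, on either strand) was in 4 of 16 list promoters, none of them of a member that passed. Of all genes with a promoter 0.662% held it, and 0.553% of those tested.

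Genes against oxidative stress held many risers. Of 37 tested NRF2 targets, glutathione and antioxidant genes 17 rose and none fell, and 30 had a change above 0 (median log2 change 0.27). Cbr3, a carbonyl reductase, measured 34.7, 38.6 and 37.6 FPKM with BSA and 77.8, 94.3 and 74.3 with PA (log2 change 1.12, SE 0.10, adjusted p = 0.000522). Gclm, the regulatory subunit of the enzyme that limits glutathione synthesis, had 24.1, 23.2 and 24.6 FPKM with BSA and 39.1, 41.6 and 45.6 with PA (log2 change 0.79, SE 0.08, adjusted p = 0.00104), and its catalytic partner Gclc rose by 0.68 on the log2 scale. The groups did not overlap in these genes. Srxn1, sulfiredoxin, an abundant transcript here, went from 791, 722 and 830.3 to 1175, 1231 and 1373 FPKM (log2 change 0.69, adjusted p = 0.00284). Gsr, glutathione reductase, rose by 0.65, Txnrd1 by 0.44 and the pentose phosphate genes Pgd, G6pdx and Taldo1 by 0.43, 0.33 and 0.25. The common reporters Nqo1 (log2 change 0.11, adjusted p = 0.58) and Hmox1 (0.17, adjusted p = 0.113) did not pass. Of the NRF2 list, 8, 8, 16, 15, 7 and 8 rose and none fell each time with 1 library left out in turn, and 6 rose and none fell with all 12 libraries in the fit. Cbr3, Gclm, Gclc, Srxn1, Gsr and Txnrd1 passed whichever library was left out. Of these, Txnrd1 did not pass with all 12 libraries in the fit (highest adjusted p = 0.197). Pgd lost the call without PA 2, G6pdx without any library but PA 1, and Taldo1 without any library but BSA 3 (highest adjusted p of each = 0.0651 to 0.14). The antioxidant response element, TGACNNNGC, was in 12 of 32 list promoters and in 6 of the 14 of members that rose. It was held by 17.4% of the tested genes with a promoter and by 14% of all genes with one. The promoter of Gclm is shown as the largest riser of the list with the element, in capitals at 134 bases before the start (chr3:122245307-122245606, plus strand):
Gclm: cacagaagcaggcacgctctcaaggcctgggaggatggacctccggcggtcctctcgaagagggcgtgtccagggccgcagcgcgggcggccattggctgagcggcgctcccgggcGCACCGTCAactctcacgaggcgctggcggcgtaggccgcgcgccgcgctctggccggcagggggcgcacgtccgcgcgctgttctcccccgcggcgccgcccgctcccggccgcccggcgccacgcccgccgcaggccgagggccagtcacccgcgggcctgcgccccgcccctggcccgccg

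Both metallothionein genes tested, Mt1 and Mt2, whose products bind zinc and copper, rose. Mt1 measured 224, 194 and 174 FPKM with BSA and 362, 343 and 347 with PA (log2 change 0.83, SE 0.09, adjusted p = 0.00161) and Mt2 33.1, 32.5 and 25.9 FPKM with BSA and 47.4, 59.9 and 54.8 with PA (log2 change 0.81, SE 0.12, adjusted p = 0.00436). The groups did not overlap in either gene. Of 8 tested members of the metallothionein and zinc transporter list 3 rose and none fell, the third being the zinc importer Slc39a4 (log2 change 0.38), and the median was 0.03. Of the metallothionein list, 2, 2, 3, 3, 2 and 2 rose and none fell each time with 1 library left out in turn, and 1 rose and none fell with all 12 libraries in the fit. Mt1 and Mt2 passed whichever library was left out. Of these, Mt2 did not pass with all 12 libraries in the fit (highest adjusted p = 0.0726). Slc39a4 lost the call without any 1 of the 4 outer libraries (highest adjusted p = 0.103).

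Beside Hamp, several genes of iron handling and of BMP signalling, the pathway that controls hepcidin, rose. Of 19 tested members 8 rose and none fell (median log2 change 0.19). Slc11a2, the iron importer DMT1, went from 11.3, 12.96 and 13.4 to 19.7, 23.6 and 23.96 FPKM (log2 change 0.79, adjusted p = 0.00294). Id1, a target gene of BMP signalling, went from 12.2, 13.5 and 12.5 to 23.04, 24.4 and 18.9 FPKM (log2 change 0.75, SE 0.10, adjusted p = 0.0037), and Id2 and Id3 rose by 0.59 and 0.47. Tfr2 (log2 change 0.38) and the protease gene Tmprss6 (0.28) of the iron-sensing pathway rose as well. The ligand gene Bmp6 (-0.04), the inhibitor Smad7 (-0.16) and the exporter Slc40a1 (-0.31) did not pass. Of the iron list, 4, 4, 6, 7, 3 and 4 rose and 0, 0, 1, 0, 0 and 0 fell with 1 library left out in turn, and 2 rose and none fell with all 12 libraries in the fit. Slc11a2, Id1 and Hamp passed whichever library was left out. Of these, Id1 did not pass with all 12 libraries in the fit (highest adjusted p = 0.145). Id2 and Tfr2 lost the call without any 1 of the 4 outer libraries, Id3 without PA 2, and Tmprss6 without any library but PA 1 (highest adjusted p of each = 0.0716 to 0.116).

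Acute phase proteins are secreted by hepatocytes in inflammation, and Hamp is one of them. The list also holds genes of other kinds. Of its 26 tested members 6 rose and none fell (median log2 change 0.07). The risers were Hamp, Saa3, Steap4, Socs3, Mt1 and Mt2, of which Mt1 and Mt2 are also counted in the metallothionein list. Steap4, a metalloreductase induced by cytokines, measured 2.17, 4.03 and 3.01 FPKM with BSA and 6.87, 10.1 and 9.39 with PA (log2 change 1.28, SE 0.18, adjusted p = 0.00404). Socs3, the feedback inhibitor of interleukin-6 signalling, had 11.5, 11.98 and 11.5 FPKM with BSA and 19.6, 23.9 and 22.3 with PA (log2 change 0.85, SE 0.09, adjusted p = 0.00111). The PA libraries were all above the BSA libraries in both. Saa3 rose by 0.76. Among the classical proteins, Saa1 had a log2 change of 0.00, Lcn2 of 0.07, Crp of 0.18 and Fgb of -0.35, and none passed (adjusted p = 0.99, 0.652, 0.428 and 0.0846). Of the acute phase list, 6, 6, 7, 9, 6 and 6 rose and 0, 0, 1, 0, 0 and 0 fell with 1 library left out in turn, and 4 rose and none fell with all 12 libraries in the fit. Steap4, Socs3, Saa3 and Hamp passed whichever library was left out. Of these, Saa3 did not pass with all 12 libraries in the fit (highest adjusted p = 0.0507).

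NF-kB targets, cytokines and chemokines rose in 14 of 30 tested members and fell in 3, with a median log2 change of 0.25. Ccl4, a macrophage chemokine, measured 10.1, 12.03 and 10.4 FPKM with BSA and 25.4, 31.9 and 23.5 with PA (log2 change 1.23, SE 0.12, adjusted p = 0.000775). Csf3, the granulocyte growth factor, had 0.481, 0.645 and 0.948 FPKM with BSA and 2.05, 3.60 and 3.02 with PA and Il23a, a subunit of interleukin-23, 2.02, 1.29 and 1.27 FPKM with BSA and 4.34, 5.50 and 3.90 with PA (log2 changes 1.19 and 1.15). All PA libraries lay above all BSA libraries in these genes; Csf3 was under 1 FPKM in every BSA library. The neutrophil chemokine genes Cxcl1 and Cxcl2 rose by 1.14 and 0.63, the monocyte chemokine genes Ccl2 and Ccl7 by 0.62 and 0.48, and Tnf by 0.77. Nfkbia, a feedback inhibitor of the pathway, rose (0.58), as did Nfkbiz (0.44) and Bcl3 (0.65). The feedback inhibitor gene Tnfaip3 (0.17, adjusted p = 0.248) and Il1b (0.00, adjusted p = 0.991) did not pass. The fallers were Vcam1 (-0.37), Ccl5 (-0.34) and Relb (-0.27). Of the NF-kB list, 13, 13, 14, 15, 12 and 13 rose and 0, 0, 2, 1, 0 and 0 fell with 1 library left out in turn, and 6 rose and none fell with all 12 libraries in the fit. Ccl4, Csf3, Il23a, Cxcl1, Cxcl2, Ccl2, Ccl7, Tnf, Nfkbia and Bcl3 passed whichever library was left out. Of these, Cxcl2 did not pass without a filter, Ccl2, Ccl7 and Bcl3 with all 12 libraries in the fit, and Nfkbia without a filter or with all 12 libraries in the fit (highest adjusted p of each = 0.0515 to 0.163). Nfkbiz lost the call without BSA 1, PA 2 or PA 3, Vcam1 without any 1 of the 4 outer libraries, Ccl5 without any library but BSA 3, and Relb without any 1 library (highest adjusted p of each = 0.0872 to 0.149). The NF-kB site was searched by its 10-letter consensus on both strands and occurred in 11 of 18 list promoters and in 5 of the 8 of members that rose. It was held by 12% of the tested genes with a promoter and by 9.55% of all genes with one. The promoter of Cxcl1 is shown as the largest riser of the list with the site; its 2 overlapping matches, in capitals, begin 71 bases before the start (chr5:90890995-90891294, plus strand):
Cxcl1: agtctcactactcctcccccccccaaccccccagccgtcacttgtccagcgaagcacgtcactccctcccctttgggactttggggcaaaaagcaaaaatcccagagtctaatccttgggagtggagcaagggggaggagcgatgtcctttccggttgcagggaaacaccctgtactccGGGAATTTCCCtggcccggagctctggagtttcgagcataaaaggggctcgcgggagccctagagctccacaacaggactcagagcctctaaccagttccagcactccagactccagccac

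Part of the macrophage markers were lower with PA. Of 17 tested Kupffer cell and macrophage markers none rose and 6 fell (median log2 change -0.29), and the 18 markers summed to 2262, 2327 and 2361 FPKM with BSA against 1896, 2039 and 2132 with PA, without overlap. Vsig4, a complement receptor of Kupffer cells, fell from 13.4 ± 1.36 to 6.56 ± 0.682 FPKM (log2 change -0.93, SE 0.10, adjusted p = 0.00145), and Timd4, Mpeg1, Ctss, C1qa and C1qb fell by 0.55, 0.66, 0.66, 0.30 and 0.29 on the log2 scale. Of the 17 markers 14 had a log2 change under 0 and 3 above 0, Clec4f and Marco among the latter. Clec4f (log2 change 0.05), Cd5l (-0.01) and Marco (0.21) did not pass, and no marker was at 0 in any library. Of the macrophage markers, none rose each time and 3, 3, 8, 5, 3 and 5 fell with 1 library left out in turn, and none rose and 3 fell with all 12 libraries in the fit. Vsig4, Mpeg1 and Ctss passed whichever library was left out. Of these, Mpeg1 did not pass without a filter, and Ctss without a filter or with all 12 libraries in the fit (highest adjusted p of each = 0.0524 to 0.0856). Timd4 lost the call without BSA 1, BSA 2 or PA 2, and C1qa and C1qb without any library but BSA 3 (highest adjusted p of each = 0.0866 to 0.135). In bulk RNA, fewer cells of a type and less RNA per cell cannot be told apart. The part of macrophage RNA in the cytokine and interferon results was not tested. The 10 neutrophil markers summed to 19.0 to 26.6 FPKM, and of 3 tested Csf3r rose (0.62). The call of Csf3r held whichever library was left out.

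Among Toll-like receptor and inflammasome genes 2 of 17 tested members rose and 1 fell, close to the share of all genes. Cd14, the lipopolysaccharide co-receptor, went from 209, 217 and 243 to 291, 433 and 389.8 FPKM (log2 change 0.72), and the adaptor Ticam1 from 6.01, 5.93 and 5.82 to 8.68, 9.74 and 9.31 FPKM (log2 change 0.56, SE 0.08, adjusted p = 0.00425). Tlr1 fell (-0.42). Of the toll-like receptor list, 2, 2, 2, 4, 1 and 2 rose and 0, 0, 1, 2, 0 and 0 fell with 1 library left out in turn, and 2 rose and none fell with all 12 libraries in the fit. Interferon response genes fell in 5 of 30 tested members and rose in 1 (median -0.05). These were 16.7% and 3.33%, against 6.9% and 8.91% of all genes. Ifit3 measured 9.40, 8.33 and 8.86 FPKM with BSA and 4.93, 3.83 and 4.20 with PA (log2 change -0.89, SE 0.10, adjusted p = 0.00147), Ifi27l2a went from 69.6, 77.7 and 62.8 to 46.4, 34.1 and 41.5 FPKM (log2 change -0.78) and Ifit2 fell by 0.76. The single riser was Oasl1, from 66.6, 76.3 and 74.7 to 104, 115 and 109 FPKM (log2 change 0.59, SE 0.08, adjusted p = 0.00338). Isg15 (-0.05) and Irf7 (-0.05) did not pass. Of the interferon list, 1, 2, 3, 1, 1 and 1 rose and 3, 3, 6, 4, 3 and 3 fell with 1 library left out in turn, and 1 rose and 2 fell with all 12 libraries in the fit. Ticam1, Ifit3, Ifi27l2a, Ifit2 and Oasl1 passed whichever library was left out. Of these, Ifi27l2a did not pass with all 12 libraries in the fit (highest adjusted p = 0.125). Cd14 lost the call without PA 2, and Tlr1 without any 1 of the 4 outer libraries (highest adjusted p of each = 0.0502 to 0.115).

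Immediate early genes, the transcription factors and feedback phosphatases that cells switch on within minutes of a stimulus, rose in 10 and fell in 3 of 22 tested members (median log2 change 0.29). Egr1 had 3.16, 3.79 and 3.64 FPKM with BSA and 13.4, 17.5 and 18.5 with PA (log2 change 1.94, SE 0.12, adjusted p = 0.000126). The PA libraries all lay far above the BSA libraries, PA 1 the lowest of them. Dusp6, a phosphatase that limits ERK signalling, went from 6.39, 5.96 and 6.56 to 9.25, 10.1 and 15.4 FPKM (log2 change 0.75), and Zfp36, which destabilizes cytokine mRNAs, from 9.17, 8.75 and 8.34 to 12.5, 15.6 and 13.8 FPKM (log2 change 0.61, SE 0.09, adjusted p = 0.00573). Myc (0.37), Junb (0.32) and Dusp1 (0.36) rose by less. Fos did not pass (log2 change 0.41, adjusted p = 0.0645), nor did Jun (0.30). Klf4 fell from 12.2, 13.5 and 14.1 to 7.36, 7.72 and 10.3 FPKM (log2 change -0.61), as did Dusp5 (-0.43) and Klf6 (-0.37). Of the immediate early list, 3, 4, 8, 13, 4 and 4 rose and 1, 2, 3, 3, 1 and 2 fell with 1 library left out in turn, and 4 rose and 1 fell with all 12 libraries in the fit. Egr1 and Zfp36 passed whichever library was left out. Dusp6 lost the call without BSA 1 or BSA 2, Myc, Dusp1 and Klf6 without any 1 of the 4 outer libraries, Junb without any library but PA 1, Klf4 without PA 2, and Dusp5 without BSA 1 (highest adjusted p of each = 0.0526 to 0.159). The CArG box, the site of serum response factor, was searched by its 10-letter consensus and found in 2 of 17 list promoters, those of Zfp36 and Dusp5. Of all genes with a promoter 1.81% held it, and 1.6% of those tested. The promoter of Zfp36 is shown as the riser that holds it, in capitals at 58 bases before the start (chr7:28379179-28379478, minus strand):
Zfp36: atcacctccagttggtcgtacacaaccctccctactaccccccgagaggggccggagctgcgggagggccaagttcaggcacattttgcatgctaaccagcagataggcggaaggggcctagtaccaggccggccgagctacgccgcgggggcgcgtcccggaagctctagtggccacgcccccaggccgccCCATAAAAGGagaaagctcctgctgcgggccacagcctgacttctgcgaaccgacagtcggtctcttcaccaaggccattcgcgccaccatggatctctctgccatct

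Genes of the actin cytoskeleton and targets of YAP, a coactivator that responds to cell tension, formed the list with the highest share of fallers. Of 30 tested members 15 fell and 1 rose, with a median log2 change of -0.21. Ctgf, a matrix-associated YAP target (chr10:24595442-24598683, plus strand), measured 62.4, 60.6 and 60.4 FPKM with BSA and 18.1, 19.2 and 22.9 with PA (log2 change -1.57, SE 0.09, adjusted p = 0.000126). Thbs1, thrombospondin, had 9.10, 10.1 and 8.38 FPKM with BSA and 2.89, 3.23 and 2.77 with PA (log2 change -1.36, SE 0.10, adjusted p = 0.000161), and Tpm2, a tropomyosin, 14.2, 10.8 and 13.3 FPKM with BSA and 5.20, 4.17 and 4.04 with PA (log2 change -1.33, SE 0.12, adjusted p = 0.000586). The groups did not overlap in any of the 3 genes, which the rule that picked them required. The YAP target Ankrd1 fell by 0.63, but Cyr61 (0.04, adjusted p = 0.752) and Amotl2 (0.33, adjusted p = 0.075) did not pass. Of filament genes, Cnn2 fell by 1.24, Msn by 0.64 and Tpm1 by 0.34, as did Srf, which encodes serum response factor, by 0.48. Actb and Actg1 had log2 changes of 0.01 and -0.12 and did not pass. Fhl2, a LIM protein of the same structures outside the list, went from 54.3, 49.96 and 57.99 to 20.1, 19.2 and 22.8 FPKM (log2 change -1.34, SE 0.09, adjusted p = 0.000126). The one riser was the tubulin gene Tuba1c (log2 change 0.31). Of the actin and YAP list, 0, 0, 1, 2, 0 and 0 rose and 10, 12, 13, 12, 10 and 14 fell with 1 library left out in turn, and none rose and 7 fell with all 12 libraries in the fit. Ctgf, Thbs1, Tpm2, Ankrd1, Cnn2, Msn, Srf, Fhl2 and Vil1 passed whichever library was left out. Of these, Ankrd1 and Srf did not pass with all 12 libraries in the fit (highest adjusted p of each = 0.101 to 0.196). Tpm1 lost the call without BSA 1 or PA 2, and Tuba1c without any 1 of the 4 outer libraries (highest adjusted p of each = 0.0737 to 0.101). The CArG box was in 5 of 24 list promoters and in 3 of the 12 of members that fell, Cnn2, Srf and Vil1, against 1.81% of all genes with a promoter (1.6% of those tested). The TEAD site CATTCC was in 12 of 24 and in 5 of the 12, against 16.6% (14.2% of those tested). The promoter of Vil1, which encodes the actin-bundling protein villin and measured 3.27, 3.32 and 3.85 FPKM with BSA and 1.08, 0.566 and 0.944 with PA (log2 change -1.27, SE 0.13, adjusted p = 0.000871), is shown as the largest fall with a CArG box, in capitals at 73 bases before the start (chr1:74409134-74409433, plus strand):
Vil1: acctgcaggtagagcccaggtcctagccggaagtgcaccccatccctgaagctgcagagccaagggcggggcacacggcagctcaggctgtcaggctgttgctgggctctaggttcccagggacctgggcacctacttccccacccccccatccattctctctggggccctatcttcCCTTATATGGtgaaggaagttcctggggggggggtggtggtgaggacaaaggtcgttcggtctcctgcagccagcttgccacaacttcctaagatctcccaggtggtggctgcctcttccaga

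Cell junction genes split within one family. Cldn4, a claudin of tight junctions, fell from 52.4, 59.9 and 60.3 FPKM to 11.4, 16.995 and 12.5 FPKM (chr5:134945119-134946934, minus strand; log2 change -2.02, SE 0.13, adjusted p = 0.000126), and Cldn1 from 3.05, 3.39 and 3.51 to 0.916, 0.769 and 0.951 FPKM (log2 change -1.20, SE 0.10, adjusted p = 0.000311). In both the PA libraries were far below the BSA libraries. Cldn14 rose from 7.999, 6.55 and 7.21 to 11.01, 13.9 and 11.2 FPKM (log2 change 0.66, adjusted p = 0.00765) and Cldn3 by 0.34, while Cldn2 (0.30) and Cldn12 (-0.33) did not pass. The gap junction genes Gjb1 and Gjb2 rose by 0.42 and 0.53. Of 23 tested members 4 rose and 3 fell (17.4% and 13%, against 8.91% and 6.9% of all genes), with a median of 0.05. Of the junction list, 1, 1, 3, 6, 1 and 1 rose and 2, 2, 5, 3, 2 and 3 fell with 1 library left out in turn, and none rose and 2 fell with all 12 libraries in the fit. Extracellular matrix genes gave 2 risers and 3 fallers of 16 tested (12.5% and 18.8%, against 8.91% and 6.9% of all genes). Fn1, fibronectin, went from 102, 113 and 107 to 65.1, 68.7 and 84.4 FPKM (log2 change -0.56, SE 0.10, adjusted p = 0.0101), and Spp1, osteopontin, fell by 0.45. Tgfb2, a TGF-beta ligand, fell by 0.46. Col4a2 and Col18a1 rose by 0.41 and 0.38. Of the matrix list, 0, 0, 1, 6, 0 and 0 rose and 2, 2, 3, 3, 0 and 3 fell with 1 library left out in turn, and none passed with all 12 libraries in the fit. Cldn4, Cldn1 and Cldn14 passed whichever library was left out. Of these, Cldn14 did not pass with all 12 libraries in the fit (highest adjusted p = 0.13). Cldn3 and Col4a2 lost the call without any library but PA 1, Gjb1, Gjb2 and Col18a1 without any 1 of the 4 outer libraries, Fn1 and Spp1 without PA 2, and Tgfb2 without BSA 1, BSA 2 or PA 2 (highest adjusted p of each = 0.0532 to 0.134).

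**Figure D5:**
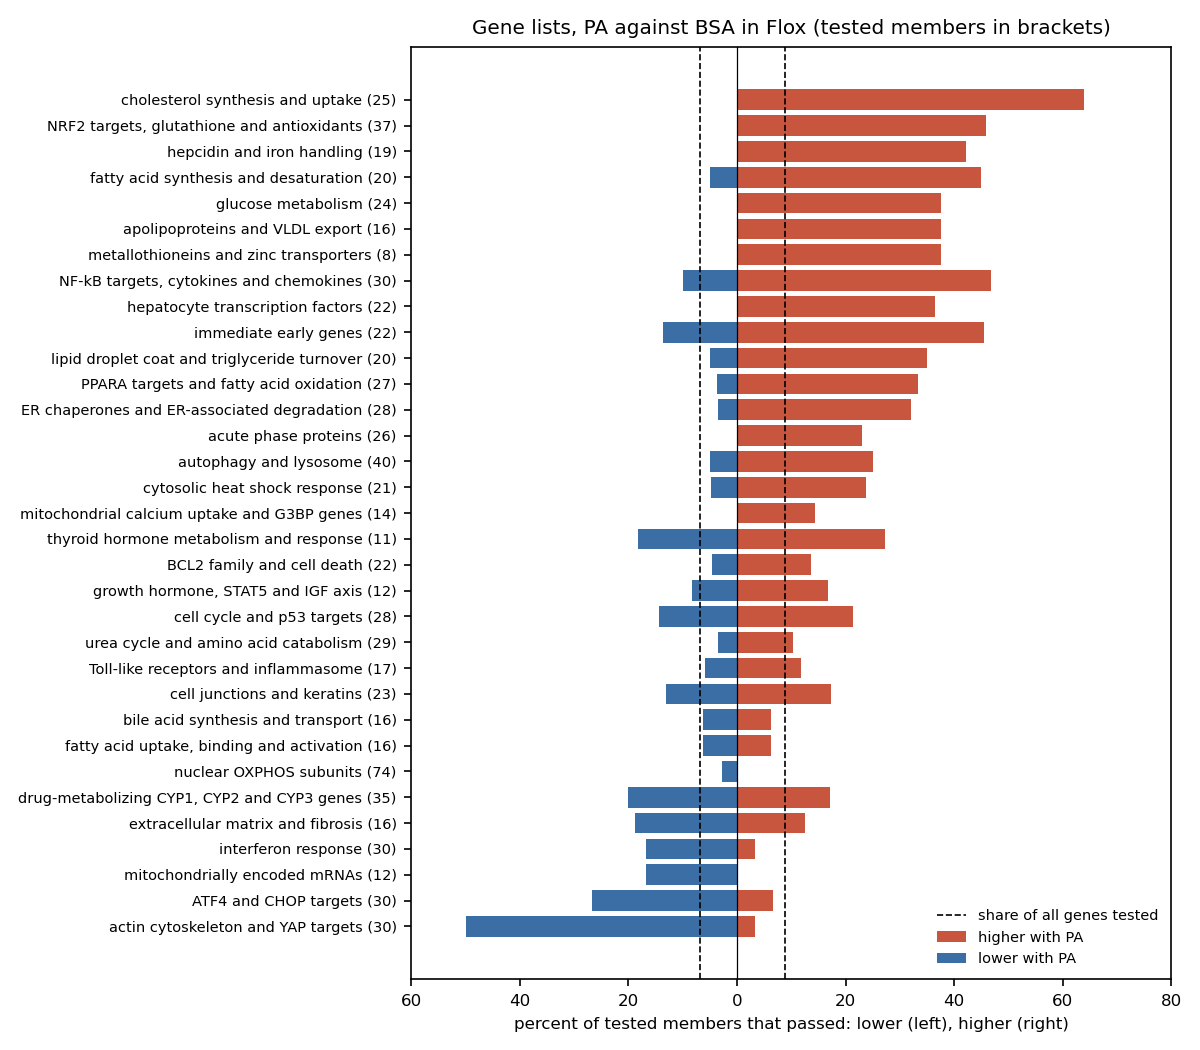
Percent of the tested members of each list that passed, higher with PA (bars to the right) or lower (bars to the left), with the number tested in brackets; dashed lines mark the shares of all genes tested, 8.91% and 6.9%. Cholesterol synthesis (64%) extends farthest to the right of the line. NF-kB targets (46.7%), NRF2 targets (45.9%), immediate early genes (45.5%) and fatty acid synthesis (45%) come next. Actin and YAP targets (50%) and ATF4 and CHOP targets (26.7%) extend far to the left.

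Of 22 tested members of the hepatocyte transcription factor list, which also holds clock genes, 8 rose and none fell (median log2 change 0.21). Foxa2 measured 3.35, 4.16 and 3.91 FPKM with BSA and 6.01, 7.78 and 7.48 with PA (log2 change 0.75, SE 0.11, adjusted p = 0.00522) and Cebpa 63.95, 62.8 and 58.9 FPKM with BSA and 89.7, 89.2 and 88.8 with PA (log2 change 0.52). PA libraries were higher without overlap in both. Hnf4a rose by 0.55 and the clock genes Per1 and Nr1d1 by 0.63 and 0.58. Of the hepatocyte factor list, 4, 3, 7, 7, 4 and 4 rose and none fell each time with 1 library left out in turn, and 1 rose and none fell with all 12 libraries in the fit. Of the 14 hepatocyte markers only Hnf4a rose and only Alb fell, from 4135, 4276 and 4521 to 3758, 3132 and 2889.6 FPKM (log2 change -0.41, adjusted p = 0.0316), while the summed markers overlapped between groups. Of the hepatocyte markers, 0, 0, 4, 2, 0 and 0 rose and 0, 0, 3, 2, 0 and 0 fell with 1 library left out in turn, and none passed with all 12 libraries in the fit. In thyroid hormone metabolism and response 3 of 11 tested members rose and 2 fell (27.3% and 18.2%, against 8.91% and 6.9% of all genes). The fallers included Dio3 and the risers Thrsp, with the values given above, while the activating deiodinase gene Dio1 did not pass (log2 change 0.26, adjusted p = 0.267). Of the thyroid list, 2, 2, 4, 4, 2 and 2 rose and 1, 1, 2, 1, 1 and 1 fell with 1 library left out in turn, and 1 rose and 1 fell with all 12 libraries in the fit. Of 12 tested genes of the growth hormone and IGF axis 2 rose and 1 fell (16.7% and 8.33%, against 8.91% and 6.9% of all genes). Igfbp1, an IGF-binding protein, went from 9.66, 12.5 and 11.9 to 16.4, 27.5 and 22.7 FPKM (log2 change 0.89, SE 0.17, adjusted p = 0.0118), and Igf1 from 10.5, 10.7 and 12.1 to 8.40, 8.46 and 8.19 FPKM (log2 change -0.37). Of the growth hormone list, 1, 1, 1, 4, 1 and 1 rose and 0, 0, 1, 1, 0 and 0 fell with 1 library left out in turn, and 1 rose and none fell with all 12 libraries in the fit. Foxa2, Cebpa, Per1, Igfbp1, Dio3 and Thrsp passed whichever library was left out. Of these, Cebpa and Per1 did not pass with all 12 libraries in the fit, and Igfbp1 without a filter (highest adjusted p of each = 0.0721 to 0.174). Hnf4a, Alb and Igf1 lost the call without any 1 of the 4 outer libraries, and Nr1d1 without BSA 2, PA 1, PA 2 or PA 3 (highest adjusted p of each = 0.0824 to 0.125).

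Drug-metabolizing cytochrome P450 genes moved in both directions. Of 35 tested members 6 rose and 7 fell (17.1% and 20%, against 8.91% and 6.9% of all genes), with a median log2 change of -0.10. Cyp2c69 measured 24.4, 24.9 and 31.1 FPKM with BSA and 12.8, 12.8 and 11.6 with PA (log2 change -1.05, SE 0.10, adjusted p = 0.000871), and Cyp2c68, Cyp2c40, Cyp2c70 and Cyp2c67 fell by 0.81, 0.72, 0.66 and 0.65. Reads of closely similar genes of this family may be split between them. The 10 Cyp2c genes tested summed to 432, 406 and 625 FPKM with BSA (BSA 3 highest) and 299, 333 and 368 with PA, without overlap. Cyp3a11, the main CYP3A enzyme, fell by 0.63. The risers Cyp1a1, Por, Cyp2d9, Cyp2d26, Cyp1a2 and Cyp2d10 changed by 0.30 to 0.55. Of the cytochrome P450 list, 1, 1, 8, 9, 0 and 1 rose and 6, 7, 7, 6, 5 and 6 fell with 1 library left out in turn, and none passed with all 12 libraries in the fit. Bile acid synthesis and transport had 1 riser, Abcc3 (0.64), and 1 faller, the canalicular pump gene Abcb11 (-0.40), of 16 tested, near the share of all genes. Of the bile acid list, 0, 0, 3, 3, 0 and 0 rose and 0, 0, 2, 1, 0 and 0 fell with 1 library left out in turn, and none passed with all 12 libraries in the fit. Cyp2c69, Cyp2c68, Cyp2c40, Cyp2c67 and Cyp3a11 passed whichever library was left out. Of these, Cyp2c69, Cyp2c68, Cyp2c40 and Cyp2c67 did not pass with all 12 libraries in the fit, and Cyp3a11 without a filter or with all 12 libraries in the fit (highest adjusted p of each = 0.199 to 0.411). Cyp2c70 lost the call without BSA 1, PA 1, PA 2 or PA 3, Cyp2d10, Cyp1a1, Abcc3, Abcb11, Cyp2d9, Cyp2d26 and Cyp1a2 without any 1 of the 4 outer libraries, and Por without PA 2 (highest adjusted p of each = 0.0502 to 0.157).

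Genes of glucose metabolism rose in 9 of 24 tested members and fell in none, with a median log2 change of 0.32. The risers were mostly steps of glycolysis. Tpi1, triosephosphate isomerase, measured 114, 129 and 125 FPKM with BSA and 179, 286 and 205 with PA (log2 change 0.83, SE 0.15, adjusted p = 0.00981), and Pfkfb3, which makes the activator of phosphofructokinase, 2.13, 2.47 and 1.96 FPKM with BSA and 3.10, 3.50 and 3.84 with PA (log2 change 0.49). PA libraries were higher without overlap in both. Ldha, Pkm, Aldoa, Pgam1 and Gpi1 rose by 0.31 to 0.44, beside Pklr above. G6pc, the last step of glucose release, had a log2 change of 0.84 that did not pass (adjusted p = 0.0771), with 0.563, 1.40 and 1.78 FPKM with BSA and 1.497, 4.53 and 3.37 with PA. Of the glucose list, 2, 3, 11, 12, 2 and 4 rose and none fell each time with 1 library left out in turn, and 1 rose and none fell with all 12 libraries in the fit. Urea cycle and amino acid genes gave 3 risers and 1 faller of 29 tested, near the share of all genes. Nags, which makes the activator of the urea cycle, rose from 10.2, 9.58 and 9.74 to 13.4, 13.4 and 13.5 FPKM (log2 change 0.41, SE 0.07, adjusted p = 0.0092). Gldc and Got2 rose by 0.43 and 0.31 and Otc fell by 0.37. Of the urea cycle list, 1, 1, 3, 4, 1 and 1 rose and 0, 0, 1, 2, 0 and 0 fell with 1 library left out in turn, and none passed with all 12 libraries in the fit. Tpi1, Nags and Pklr passed whichever library was left out. Of these, Tpi1 did not pass without a filter or with all 12 libraries in the fit, and Nags and Pklr with all 12 libraries in the fit (highest adjusted p of each = 0.0839 to 0.219). Pfkfb3 lost the call without BSA 1, PA 2 or PA 3, Gpi1, Pkm, Gldc, Got2 and Pgam1 without any 1 of the 4 outer libraries, Otc without any library but PA 1, and Ldha and Aldoa without BSA 1, BSA 2 or PA 2 (highest adjusted p of each = 0.0698 to 0.179).

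Of 74 nuclear subunits of oxidative phosphorylation none rose and 2 fell (median log2 change 0.05), Cycs (-0.33) and Ndufv2 (-0.26). Of the respiratory chain list, 0, 1, 0, 0, 0 and 0 rose and 0, 0, 0, 3, 0 and 0 fell with 1 library left out in turn, and none passed with all 12 libraries in the fit. Of 12 tested mitochondrially encoded mRNAs none rose and 2 fell (median -0.30). The first, mt-Co1, measured 7115, 7589.8 and 11165 FPKM with BSA and 4935, 4833 and 5381 with PA (log2 change -0.74, SE 0.16, adjusted p = 0.017), and the second, mt-Nd4, 1286, 1327 and 2179 FPKM with BSA and 1043, 979 and 1034 with PA (log2 change -0.60). BSA 3 was the highest library in both. Of the mitochondrial mRNA list, none rose each time and 3, 1, 3, 3, 0 and 1 fell with 1 library left out in turn, and none passed with all 12 libraries in the fit. Genes of the mitochondrial genome took 2.96%, 3.17% and 4.34% of the reads with BSA and 2.40%, 2.21% and 2.34% with PA; the part of this difference in the results for single genes was not tested. The mitochondrial tRNA gene mt-Tl1 fell from 20.9, 28.6 and 34.99 to 12.4, 9.46 and 9.85 FPKM (log2 change -1.31, SE 0.17, adjusted p = 0.00295). In the list of mitochondrial calcium uptake and G3BP genes 2 of 14 tested members rose (14.3%, against 8.91% of all genes) and none fell. Slc8b1, the sodium-calcium exchanger of mitochondria, rose by 0.40 and Vdac1, the outer membrane channel, by 0.28. The uniporter pore gene Mcu measured 4.68, 4.48 and 5.27 FPKM with BSA and 4.34, 4.15 and 4.92 with PA and did not pass (log2 change -0.09, adjusted p = 0.536), nor did its regulators Micu2 (-0.24), Mcub (0.24) and Smdt1 (0.05). Of the calcium uptake list, 0, 1, 2, 2, 0 and 0 rose and 0, 0, 0, 1, 0 and 0 fell with 1 library left out in turn, and none passed with all 12 libraries in the fit. mt-Tl1 passed whichever library was left out. mt-Tl1 did not pass with all 12 libraries in the fit (highest adjusted p = 0.138). Cycs and Ndufv2 lost the call without any library but PA 1, mt-Co1 without PA 2, mt-Nd4 without BSA 2, PA 1, PA 2 or PA 3, Slc8b1 without BSA 1, PA 2 or PA 3, and Vdac1 without any 1 of the 4 outer libraries (highest adjusted p of each = 0.0784 to 0.152).

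Autophagy and lysosome genes rose in 10 and fell in 2 of 40 tested members (median log2 change 0.11). These were 25% and 5%, against 8.91% and 6.9% of all genes. Gabarapl1, an ATG8 protein of the autophagosome, measured 56.8, 52.6 and 61.6 FPKM with BSA and 82.5, 92.8 and 85.9 with PA (log2 change 0.60, SE 0.08, adjusted p = 0.00377). Lamp2, a lysosomal membrane protein, fell from 12.6, 13.03 and 14.6 to 9.86, 9.14 and 9.002 FPKM (log2 change -0.48, SE 0.09, adjusted p = 0.00946) and Atg5 fell by 0.62. The groups did not overlap in Gabarapl1 or Lamp2. Ulk1, the kinase that starts autophagy, rose by 0.57, and the cathepsin genes Ctsa, Ctsd and Ctsz by 0.46, 0.40 and 0.26. The adaptor Sqstm1 had a log2 change of -0.02 (adjusted p = 0.874). Of the autophagy list, 1, 2, 10, 13, 1 and 2 rose and 2, 2, 2, 2, 1 and 1 fell with 1 library left out in turn, and 1 rose and none fell with all 12 libraries in the fit. Gabarapl1 and Lamp2 passed whichever library was left out. Of these, Lamp2 did not pass with all 12 libraries in the fit (highest adjusted p = 0.436). Atg5 lost the call without PA 2 or PA 3, Ulk1 without BSA 1, PA 2 or PA 3, and Ctsa, Ctsd and Ctsz without any 1 of the 4 outer libraries (highest adjusted p of each = 0.0806 to 0.147).

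Cell cycle and p53 target genes gave 6 risers and 4 fallers of 28 tested (21.4% and 14.3%, against 8.91% and 6.9% of all genes), with a median log2 change of 0.09. Mcm2, a subunit of the replicative helicase, went from 4.04, 4.09 and 4.62 to 6.74, 7.28 and 7.57 FPKM (log2 change 0.64, SE 0.09, adjusted p = 0.00377), and Mcm5 and Mcm3 rose by 0.47 and 0.41. The growth arrest genes of one family moved apart: Gadd45g fell from 66.3, 62.6 and 52.1 to 25.4, 24.5 and 25.8 FPKM (log2 change -1.22, SE 0.10, adjusted p = 0.000277), Gadd45b rose from 16.04, 15.97 and 15.2 to 20.3, 24.2 and 23.9 FPKM (log2 change 0.50), and Gadd45a did not pass (-0.27). Mdm2 fell by 0.44 and Cdkn1a, which encodes p21, had a log2 change of 0.04 (adjusted p = 0.724). Of the cell cycle list, 3, 2, 6, 6, 2 and 4 rose and 2, 1, 5, 4, 1 and 2 fell with 1 library left out in turn, and none rose and 1 fell with all 12 libraries in the fit. Of 22 tested genes of the BCL2 family and cell death 3 rose (13.6%, against 8.91% of all genes) and 1 fell (4.55%, against 6.9%), with a median of -0.007. The risers included Casp9 (0.44) and the death receptor gene Tnfrsf10b (0.42), and Casp8 fell (-0.36). Of the cell death list, 0, 0, 5, 4, 0 and 0 rose and 0, 0, 2, 1, 0 and 0 fell with 1 library left out in turn, and none passed with all 12 libraries in the fit. Mcm2, Gadd45g and Gadd45b passed whichever library was left out. Of these, Mcm2 and Gadd45b did not pass with all 12 libraries in the fit (highest adjusted p of each = 0.0524 to 0.218). Mcm5, Mdm2, Casp9, Tnfrsf10b and Casp8 lost the call without any 1 of the 4 outer libraries, and Mcm3 without BSA 2 or PA 2 (highest adjusted p of each = 0.0737 to 0.14).

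The most abundant transcripts that rose were Fth1, Slpi, Apoa2, Gstp1 and Srxn1. Fth1, the heavy chain of the iron store ferritin, went from 24923, 23135 and 23281 FPKM to 29111, 29043 and 28522 FPKM (log2 change 0.28, adjusted p = 0.048). Apoa2, a lipoprotein component, and the glutathione transferase gene Gstp1, which has a near-identical neighbour Gstp2, rose by 0.26 and 0.29. Slpi, a secreted protease inhibitor, went from 2945, 2877 and 3088 to 3426, 3845 and 4138 FPKM (log2 change 0.35, SE 0.09, adjusted p = 0.0308). The most abundant that fell were mt-Co1, Alb, mt-Tc (log2 change -0.51), mt-Nd4 and mt-Rnr1 (-0.65), 4 of them transcribed from the mitochondrial genome. The remaining gene of the largest changes, the small nucleolar RNA Snord73a, fell from 3.84, 3.15 and 2.46 FPKM to 0.805, 1.74 and 0 FPKM (log2 change -1.27, SE 0.31, adjusted p = 0.0265). Its call was also lost with a pseudocount of 0.1, without a filter, with a robust prior, with all 12 libraries in the fit and with limma-voom on reads (adjusted p of up to 0.228). Srxn1 passed whichever library was left out. Fth1, Apoa2 and Gstp1 lost the call without any 1 library, Slpi and Alb without any 1 of the 4 outer libraries, mt-Tc without BSA 1, PA 2 or PA 3, mt-Rnr1 without BSA 2, PA 2 or PA 3, and Snord73a without BSA 1 or BSA 2 (highest adjusted p of each = 0.0685 to 0.182).

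The same change was measured in HKO cells, and the difference between the genotypes was tested over all 12 libraries as an interaction. It passed for 27 of 9802 genes (0.275%), 19 with a higher and 8 with a lower change in HKO, while 1722 genes had an unadjusted p under 0.05. The number that passed was 0 without BSA 1, BSA 2 or PA 2, 15 without PA 3 and 17 without BSA 3 or PA 1. With the replicate number as a block it was 3, and under quantile normalization 86. The 20 genes of largest change were picked by their change in the same Flox libraries that enter the interaction, so their differences are not independent of that choice. Of these 20, Derl3 alone passed, with a log2 change of 1.83 in Flox and 0.46 in HKO (difference -1.38, SE 0.19, adjusted p = 0.0154). The adjusted p was 0.0703 without BSA 1, 0.0534 without BSA 2 and 0.0678 without PA 2, and 0.107 with the replicate number as a block, so the call was lost in each of these fits. In HKO it measured 2.07, 1.78 and 1.83 FPKM with BSA and 3.14, 3.22 and 2.59 with PA, so its HKO_BSA libraries lay above all Flox_BSA libraries and its HKO_PA libraries below all Flox_PA libraries. For Plin2 the changes were 1.97 and 1.92 (difference -0.05, SE 0.22, adjusted p = 0.919), for Dio3 -2.49 and -1.94 (adjusted p = 0.255), and for Hamp 2.84 and 3.84 (adjusted p = 0.305). Dhcr7 changed by 1.33 in Flox and 0.10 in HKO, Cldn4 by -2.02 and -0.71, and Ctgf by -1.57 and -0.59, differences that did not pass (adjusted p = 0.0733, 0.0869 and 0.0586). The macrophage markers summed to 101 to 185 FPKM in HKO against 1896 to 2361 in Flox, and mitochondrial genes took 4.10% to 8.20% of HKO reads; their part in these differences was not tested.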

How the data were processed

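RNA-seq values were used as deposited by the authors: FPKM per gene, with gene lengths. The submitters' processing notes name the build GRCm38 (mm10); no source used here gives the aligner, the counting tool or its handling of strand. Per the labels' protocols, libraries came from an NEBNext Ultra kit. FPKM times length gave whole reads, within 0.01, for 100% of values of up to 1000 reads, and these gave the depth.

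The 6 Flox libraries were fitted with limma 3.58.1 (R 4.3.3) on log2(FPKM + 1), with a trend in the prior, for genes whose average reached 1 FPKM; this scale understates changes of low genes. Tests were two-sided with Benjamini-Hochberg adjustment over all genes tested, and a gene passed at an adjusted p under 0.05. The interaction was fitted over all 12 libraries.

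Members and gene lists were chosen with earlier results of these data known, so counts by list are descriptions. By rule the text names G3bp1, G3bp2 and, in each direction, the 10 genes of largest change among those that passed without overlap of the groups (predicted genes and pseudogenes left out), up to 3 passing members of each list (the 1 of smallest p where none passed), and the 5 most abundant passing genes. Other list members were named after their values were seen. Some genes are counted in their lists but not reported by name here.

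Alternatives were a pseudocount of 0.1, no filter, a filter at 5 FPKM, quantile and median-ratio scaling, a prior without trend or robust, array weights, all 12 libraries, limma-voom on the computed reads, the replicate number as a block, and each library left out. RefSeq promoters (250 bases before to 50 after the start) were matched by symbol for 630 of 813 tested list members. A gene counted as holding a motif if any of its promoters did, so motif shares are of genes with a promoter, 27025 in all and 7231 tested. A motif match describes letters only.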

Additional observations from a re-analysis of the deposited data

Results flagged for a closer look

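Among the genes of largest change, 1 had an interaction of genotype and PA that passed in the main fit. These genes were picked by their change in the same Flox libraries that enter the interaction, so its values are not independent of that choice. The interaction term for Derl3, fitted over all 12 libraries, was -1.38 on the log2 scale (HKO minus Flox, adjusted p = 0.0154). Derl3 was higher in all 3 PA libraries than in all 3 BSA libraries in both genotypes. With single Flox libraries left out the term lay between -1.45 and -1.27, and its adjusted p was 0.0703 without BSA 1, 0.0534 without BSA 2, 0.0678 without PA 2, and between 0.0253 and 0.0499 without BSA 3, PA 1 or PA 3. With the replicate number as a block its adjusted p was 0.107, which ended the call, and it was 0.00303 under quantile normalization and 0.0134 with a pseudocount of 0.1.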

How the results depend on the processing

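Against 1549 genes that passed (873 higher, 676 lower), there were 446 (278 and 168) without a filter, 3823 (2051 and 1772) with array weights, 245 (131 and 114) with all 12 libraries in the fit, and 2003 (950 and 1053) with limma-voom on reads, of which 1477 were shared. Between 1388 and 1601 passed with the other settings of pseudocount, filter, scaling and prior. Single libraries left out gave 392 to 1942 genes, 225 to 1140 higher and 167 to 911 lower. Without the filter 22170 genes were tested; no setting varied the depth, so its effect on these counts was not tested. The interaction count of 27 was 86 under quantile normalization and 0 to 17 with single Flox libraries left out.

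With the replicate number as a block 2421 genes passed (1271 higher, 1150 lower), and 3 for the interaction, where the Derl3 term had adjusted p = 0.107. Same-numbered libraries had correlations of their deviations of 0.19, -0.04 and 0.32, and BSA 1 and BSA 3 correlated best with their own number but BSA 2 with PA 1 (0.17). The sample titles join the number to the genotype, as in Flox-1 with BSA and Flox-1 with PA, but do not say whether same-numbered libraries share a mouse. Differently numbered libraries had correlations of -0.30 to 0.17. With 3 libraries a group these values cannot decide the pairing, and the main fit did not pair them.

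The rule for named genes picked 134 genes and 132 of them passed; 65 kept the call whichever library was left out and 46 under all settings. Direction reversed for 4 values near 0. G3bp1 in Flox ranged from -0.10 to 0.036 with single libraries left out (0.036 without BSA 3). Ranges were -0.17 to 0.040 for the Plin2 interaction (0.030 without BSA 1, 0.040 without PA 2), -0.116 to 0.0054 for the Thbs1 interaction (0.0054 without BSA 3, and 0.038 under quantile normalization), and -0.0081 (without PA 2) to 0.20 for the Vil1 interaction. The cause of these differences was not tested.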

Other observations

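Most host genes of small nucleolar RNAs fell. Of 11 tested (Snhg genes, Zfas1 and Gas5, looked at after their values were seen) none rose and 7 fell, against 6.9% of all genes, with a median log2 change of -0.44. They summed to 262, 258 and 261 FPKM with BSA and 196, 185 and 175 with PA. Snhg12 measured 20.8, 18.8 and 20.8 FPKM with BSA and 10.01, 9.55 and 9.51 with PA (log2 change -0.98, SE 0.08, adjusted p = 0.000298) and Zfas1 24.2, 27.4 and 25.2 FPKM with BSA and 13.3, 14.2 and 13.5 with PA (log2 change -0.86, SE 0.08, adjusted p = 0.000586). Translation initiation factors gave 1 riser and 10 fallers of 52 tested, against 8.91% and 6.9% of all genes, with a median of -0.05. Eif3a, the largest eIF3 subunit, fell from 47.7, 51.7 and 32.1 to 27.9, 21.4 and 16.1 FPKM (log2 change -0.98, SE 0.21, adjusted p = 0.0182), Eif4a2 by 0.86 and Eif1a by 0.74. Aminoacyl-tRNA synthetases fell in 4 of 18 (Dars, Iars, Nars and Tars), against 6.9% of all genes, with none higher. Cytosolic ribosomal proteins fell in 4 of 76, a share under the 6.9% of all genes, and none rose.

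Members of several hepatocyte gene clusters fell as well. Of 5 Serpina3 genes 3 fell, of 12 UDP-glucuronosyltransferase genes 3, and of 10 major urinary protein genes 3, against 6.9% of all genes, with none higher. The Serpina3 genes summed to 1189, 1101 and 2010 FPKM with BSA (BSA 3 highest) and 767, 802 and 1057 with PA, where the groups did not overlap. The major urinary protein genes summed to 973, 884 and 1003 FPKM with BSA and 724, 690.0 and 628 with PA. Single genes of this family differed widely within a group, such as Mup16 with 24.2, 6.10 and 0.377 FPKM with BSA. These families were picked after their values were seen and were not tested as groups. Division of reads among such copies is uncertain.

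A few abundant genes differed widely between libraries of one group. In 9 genes, with a group mean above 10 FPKM, the highest library was over 4 times the lowest (with 0.1 FPKM added to the lowest). Gapdh, often used as a reference gene, measured 173, 131 and 8.39 FPKM with BSA and 106, 276 and 128 with PA and did not pass (log2 change 1.38, SE 0.93, adjusted p = 0.312). Gm21320 had 232, 0.187 and 347 FPKM with BSA, Mup12 10.8, 42.4 and 0.675 with PA and Sumo2 27.4, 3.68 and 7.30 with PA.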
